A study of Mus musculus with 4 samples.

Results

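Prg2, Prg3 and Epx encode classical cationic proteins of the eosinophil granule, and the rows carrying these 3 symbols were read from the deposited table, in which all 3 were present among 5807 listed genes. The table compares eosinophils sorted from bone marrow with eosinophils sorted from pleural lavage fluid of mice whose genotype is labelled WT. Both tissues came from mice injected into the pleural space with 150000 LLC cells, a mouse lung carcinoma line that gives rise to malignant pleural effusion (MPE), and were taken at day 2 from animals 6 to 8 weeks old. C57 BL/6 and BALB/C WT mice are both named in the methods, and which strain gave these libraries is not given in the sources used here. About 40000 sorted cells went into each RNA extraction, and each tissue was represented by 2 libraries, for which it is not given whether cells of several mice were pooled. The study's text also calls the bone marrow cells naïve, whereas the sample titles and the methods tie them to LLC-injected mice. The gates differed, since bone marrow cells were sorted as CD45+SiglecF+SSChi after enrichment on the surface protein that Adgre1 encodes, while pleural cavity cells were also required to be CD11c-, Gr1-/low, CD11b+ and positive for the Adgre1 protein. The tissue and the gate therefore cannot be told apart in any comparison below.

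Eosinophils mature in the bone marrow, where they fill large specific granules with a few very basic proteins before they enter the blood. Prg2 encodes major basic protein 1, which is made as a proprotein with an acidic propiece and forms the crystalline core of the granule. Prg3 encodes its homolog, major basic protein 2. Epx encodes eosinophil peroxidase, a haem enzyme of the granule matrix that uses hydrogen peroxide to oxidize halides. Mature eosinophils carry these proteins ready made and release them by degranulation, so the transcripts do not report the stored protein, which these libraries do not measure. In separate work the study labelled pleural lavage cells of LLC-injected mice with an antibody to eosinophil peroxidase. By that protein it showed eosinophils in the pleural cavity, at a later day than these libraries.

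Prg2 and Prg3 are neighbors. In GENCODE on GRCm38, Prg2 lies on the plus strand of chromosome 2 from 84980461 to 84983632 and Prg3 on the same strand from 84988215 to 84993886, which leaves a gap of 4583 bases between them. Epx lies on the minus strand of chromosome 11 from 87864000 to 87875536. The longest transcript has 6 exons and 838 bases for Prg2, 6 exons and 949 bases for Prg3, and 13 exons and 2689 bases for Epx. No other annotated gene overlaps any of the 3. Translated from those transcripts, the Prg2 protein has 223 residues and the Prg3 protein 222, and 119 of their 220 aligned residues are identical (54.1%). The charge of both is split along the chain. In the first 100 residues Prg2 has 24 acidic residues (aspartate or glutamate) against 5 basic ones (arginine or lysine), and in the remaining 123 residues it has 4 acidic against 20 basic ones. Prg3 has 25 acidic against 9 basic in its first 100 residues and 4 acidic against 16 basic in the remaining 122. Epx, with 716 residues, is basic as a whole, with 104 basic and 58 acidic residues, of which 78 are arginines. Its relative Mpo, the peroxidase of neutrophil granules, has 484 of 715 aligned residues in common with it (67.7%), while 88 of the residues of Mpo are basic and 60 acidic. The longest identical stretch was 23 bases between the Prg2 and Prg3 transcripts and 26 bases between those of Epx and Mpo, and no window of 100 bases, the length of a read, was shared in either pair.

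The promoters of Prg3 and Epx are shown because both genes had far fewer reads in pleural cavity eosinophils and encode granule proteins of different families. The RefSeq promoter table (GRCm38.p6) holds 2 of the 3 genes and does not list Prg2. Below, the 250 bases before the annotated start are given 5′ to 3′ on the strand of the gene, at chr2:84987965-84988214 for Prg3 and chr11:87875537-87875786 for Epx. Capitals mark matches to GATAA, the core of the motif bound by GATA factors, on either strand.
Prg3: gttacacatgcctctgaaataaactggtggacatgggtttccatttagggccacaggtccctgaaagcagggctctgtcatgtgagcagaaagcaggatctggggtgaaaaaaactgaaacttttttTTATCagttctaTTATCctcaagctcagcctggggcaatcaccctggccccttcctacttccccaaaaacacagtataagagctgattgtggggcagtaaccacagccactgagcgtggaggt
Epx: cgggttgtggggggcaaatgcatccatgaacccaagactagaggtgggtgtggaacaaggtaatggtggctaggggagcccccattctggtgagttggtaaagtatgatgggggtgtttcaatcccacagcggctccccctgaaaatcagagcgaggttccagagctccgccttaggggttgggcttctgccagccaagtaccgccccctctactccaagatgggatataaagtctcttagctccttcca

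Prg3 had 2 matches to GATAA, both on the minus strand, from 123 to 119 and from 111 to 107 bases before the start. Epx had 0 matches in this window. Among 32851 promoters of the table, 22.6% held at least 1 match and 4.28% at least 2 in the same 250 bases. TTGCNNAA, the form searched for C/EBP factors, had 0 matches before either gene and at least 1 match in 9.56% of all promoters. GGAA, the core of ETS sites such as those of PU.1, had 3 matches before each gene, which was also the median of all promoters, and 93.4% of them held at least 1. These counts describe letters and say nothing on binding.

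The authors' mean reads of all 3 genes were far lower in pleural cavity eosinophils. Prg2 had 555403.5 mean reads in bone marrow and 1482 in pleural cavity eosinophils, so that the bone marrow mean was 375-fold higher (95% exact interval for counting error 356 to 395). Prg2 had more reads in bone marrow eosinophils than any other listed gene. Epx had 139061.5 mean reads in bone marrow and 341.5 in pleural cavity eosinophils, a fold of 407 (366 to 454), and ranked 9 among listed genes by bone marrow reads. Prg3 had 38176.5 mean reads in bone marrow and 146.5 in pleural cavity eosinophils, a fold of 261 (222 to 309), and ranked 30. On the log2 scale the ratio of pleural cavity to bone marrow reads was -8.55 for Prg2, -8.67 for Epx and -8.03 for Prg3. Only means per tissue were at hand, which give neither a spread between replicates nor a test, and the intervals treat each mean as one count and leave out the variation between libraries. A mean over 2 libraries rests on more reads than one such count, so for counting error alone the intervals are too wide. The mean reads of these 3 genes were whole numbers or multiples of 0.5, as were those of 74.9% of listed genes, so no split of reads between similar genes was visible in them.

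**Figure D1:**
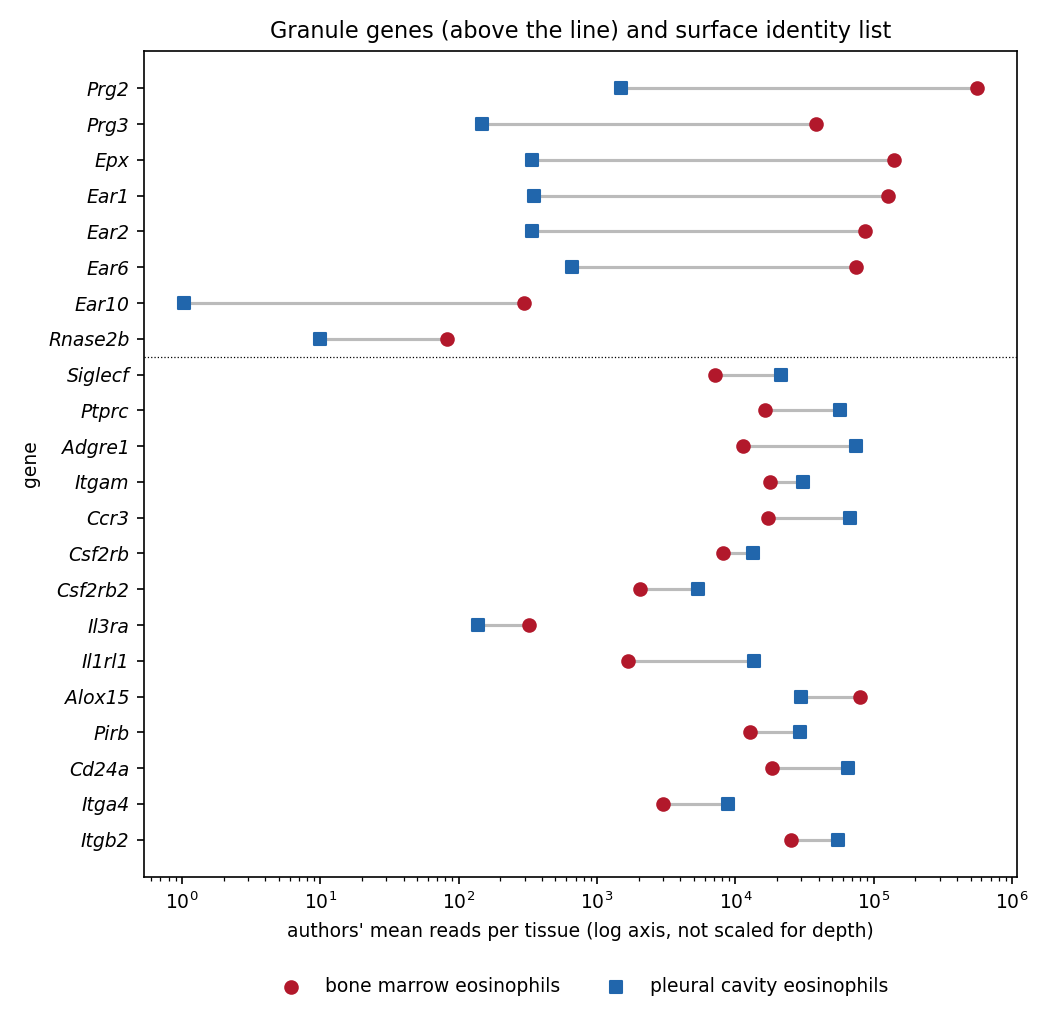
Mean reads (log axis) of the 3 genes, of the other listed granule genes and, below the dotted line, of all 14 listed genes of the eosinophil identity list in bone marrow eosinophils (red circles) and pleural cavity eosinophils (blue squares), each point being the authors' mean of a tissue. Prg2, Prg3 and Epx lie between 38176.5 and 555403.5 reads in bone marrow and between 146.5 and 1482 in pleural cavity eosinophils, whereas 12 of the 14 identity genes have more reads in the pleural cavity as deposited (10 under the scaling by the median ratio) and Alox15 and Il3ra have fewer. More reads there were found for 42.5% of all listed genes as deposited and 35.8% under that scaling.

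Every listed gene had been selected by the authors' own comparison, so a listed gene had to differ, and the background is given for listed genes. As deposited, 57.5% of listed genes had fewer and 42.5% more reads in pleural cavity eosinophils, or 64.2% and 35.8% under the scaling by the median ratio. All 3 genes were over 2-fold and over 16-fold lower in pleural cavity eosinophils, against 43.2% and 21.5% of the 5807 listed genes. Of the 1251 genes over 16-fold lower, 98 had at least 1000 bone marrow mean reads. Of the 1945 listed genes with at least 1000 bone marrow mean reads, 5.04% were over 16-fold lower, and ordered from the lowest ratio Epx ranked 15, Prg2 16 and Prg3 21. Mean reads are not scaled for depth. Their sum over listed genes was 11762543 for bone marrow and 15947438 for pleural cavity eosinophils, which covers listed genes and is not the depth of a library. Every scaling tried made the ratio of the 3 genes lower still, by 0.30 to 0.88 on the log2 scale.

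**Figure D2:**
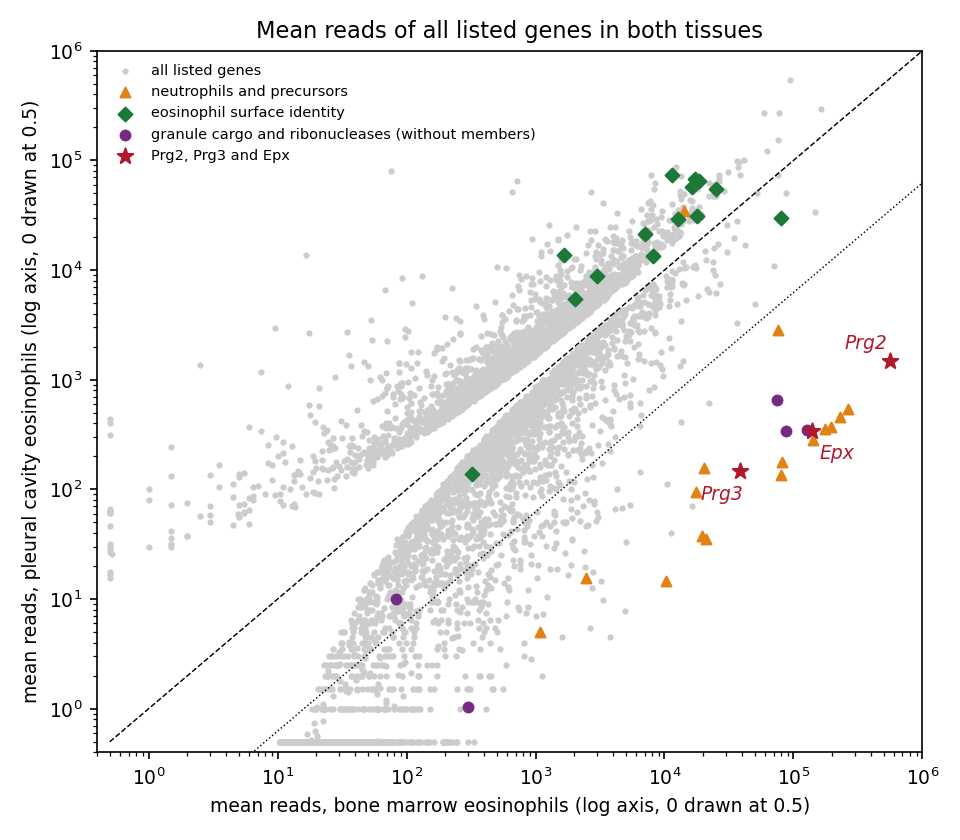
Mean reads of all 5807 listed genes in bone marrow (x axis) and pleural cavity eosinophils (y axis), both on log axes with 0 drawn at 0.5. The dashed line marks equal reads and the dotted line 16-fold fewer reads in the pleural cavity, and Prg2, Prg3 and Epx (red stars) lie at the lower right beside neutrophil genes (orange triangles), while most surface genes of eosinophils (green diamonds) lie above the dashed line.

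Levels of the 3 genes were compared with each other per length of the longest transcript. In bone marrow eosinophils Prg2 had 662773 reads per kilobase, Epx 51715 and Prg3 40228, which were ranks 1, 17 and 22 among the 5656 listed genes with an annotated length. In pleural cavity eosinophils Prg2 had 1768 reads per kilobase, Prg3 154 and Epx 127, at ranks 686, 2772 and 2921. Prg2 thus stood first of the 3 in both tissues, while the order of Epx and Prg3 differed. The ratio of Epx to Prg3 per kilobase was 1.29 in bone marrow and 0.823 in pleural cavity eosinophils (95% exact interval 0.676 to 1.01), an interval that holds 1. By coding length the pleural cavity ratio was 0.723 (0.594 to 0.883), so whether the interval held 1 depended on the length used. These intervals take each mean of 2 libraries as one count. For counting error alone they are too wide, so one that holds 1 shows no equality. They leave out the variation between libraries, so one that excludes 1 shows no difference beyond that variation.

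In the summed reads of the 3 genes, the share of Prg2 was close in both tissues. In pleural cavity eosinophils that of Epx was slightly lower and that of Prg3 higher. Summed over the 3 genes, mean reads came to 732641.5 in bone marrow and 1970 in pleural cavity eosinophils, or 6.23% and 0.0124% of all listed reads. Prg2 made up 75.8% of the sum in bone marrow (75.7% to 75.9%) and 75.2% in pleural cavity eosinophils (73.3% to 77.1%). The share of Epx was 19.0% (18.9% to 19.1%) and 17.3% (15.7% to 19.1%), so the intervals of both genes overlapped between the tissues. They take each mean of 2 libraries as one count and are too wide for counting error alone, while leaving out the variation between libraries. This overlap therefore does not show that the shares agreed. The share of Prg3 was 5.21% (5.16% to 5.26%) in bone marrow and 7.44% (6.32% to 8.69%) in pleural cavity eosinophils, and these intervals did not overlap. Prg2 had 14.5 reads per read of Prg3 in bone marrow (14.4 to 14.7) and 10.1 in pleural cavity eosinophils (8.53 to 12.1). Depth cancels in these ratios. The log2 ratio between the tissues differed by -0.52 between Prg2 and Prg3, and by -0.83 to -0.21 from the bounds of both intervals. It was 0.64 higher for Prg3 than for Epx (0.25 to 1.04) and differed by 0.12 between Prg2 and Epx (-0.11 to 0.35). The latter interval holds 0 but is too wide for counting error alone. Whether the difference of Prg3 exceeds the spread between libraries was not tested.

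The pleural cavity reads of the 3 genes were a small percentage of their bone marrow reads, and other abundant genes had similar ones. They came to 0.267% of the bone marrow reads for Prg2 (0.253% to 0.281%), 0.246% for Epx (0.220% to 0.273%) and 0.384% for Prg3 (0.324% to 0.451%). Of the 168 listed genes with at least 10000 bone marrow mean reads, 24 were over 16-fold lower, the 3 granule genes included. Over the other 21 the percentage had a median of 0.276%, with quartiles of 0.198% and 0.781%, and none was under 0.1%. Of these 21 genes, 7 lay between 0.1% and 0.2% and 4 between 0.2% and 0.3%. Ngp, which encodes a neutrophil granule protein, stood at 0.208% (0.191% to 0.226%), from 263228.5 bone marrow reads. S100a8, a calgranulin subunit abundant in neutrophils, stood at 0.199%, and Mpo at 0.191%. The intervals of Prg2 and Prg3 lay above those of these 3 genes, which have the most bone marrow reads of the 21, and that of Epx overlapped the interval of Ngp. Other neutrophil genes lay nearer or higher. The interval of Ltf reached 0.254% and overlapped that of Prg2. Lcn2 at 0.537%, Prtn3 at 0.781% and Chil3 at 3.73% stood above all 3 granule genes. The bone marrow mean of Chil3 was fractional, which happens when reads are divided between similar genes, so its value is uncertain. This comparison was chosen after the values were seen. Whether the pleural cavity reads of Prg2, Prg3 and Epx came from the pleural cavity eosinophils themselves was not tested and cannot be told from tissue means, and their folds, shares and ranks there carry this limit.

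**Figure D3:**
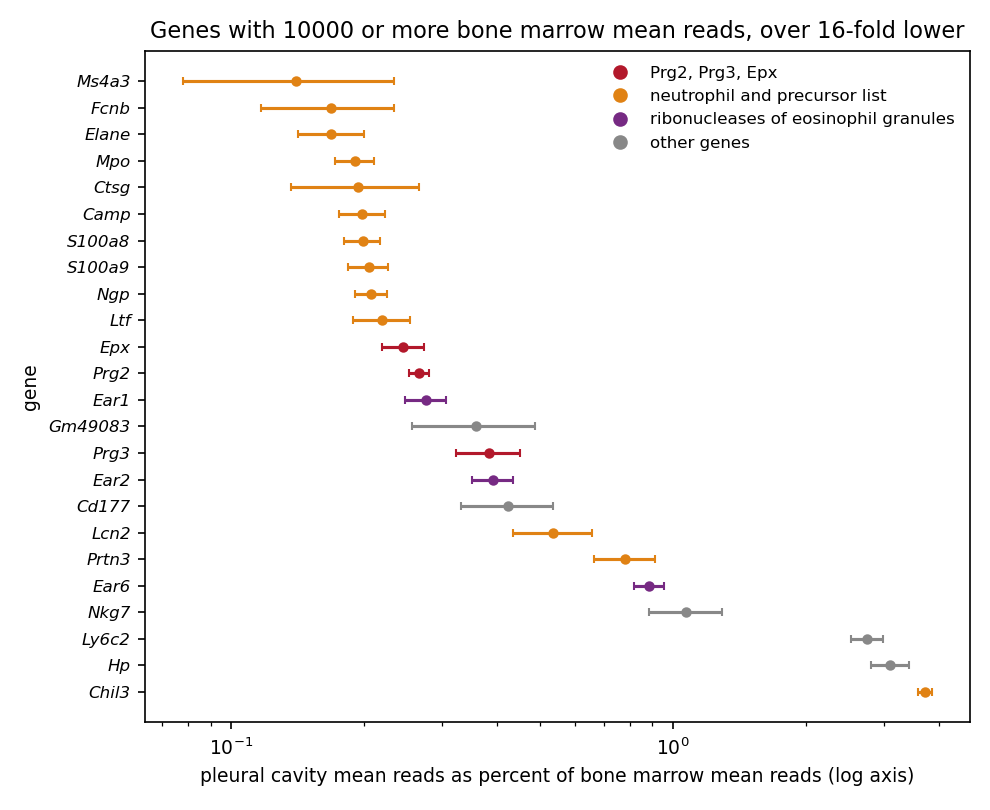
Pleural cavity mean reads as a percentage of bone marrow mean reads (log axis) for the 24 listed genes with at least 10000 bone marrow mean reads that were over 16-fold lower, with bars for the 95% exact interval of counting error. Epx, Prg2 and Prg3 (red) stand at 0.246%, 0.267% and 0.384%. Of the neutrophil genes (orange), Mpo at 0.191% and others lie below them. Lcn2 at 0.537%, Prtn3 at 0.781% and Chil3 at 3.73%, whose bone marrow mean is fractional, lie above them.

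Genes with the most similar ratio were sought among listed genes with at least 1000 bone marrow mean reads, where likeness rests on the 2 tissue means alone. Nearest to Prg2 (-8.55) were Ear1, an eosinophil-associated ribonuclease, at a log2 ratio of -8.50, Prom1 at -8.47 and Epx at -8.67. Nearest to Prg3 (-8.03) were Ear2 at -8.00, Gm49083 at -8.12 and Cd177, a neutrophil surface antigen, at -7.88. Nearest to Epx were Prg2, then Ltf, which encodes lactoferrin of neutrophil granules, at -8.83, and Ear1. Mean reads of Ear1, Ear2 and Gm49083 were fractional, which happens when reads are divided between similar genes, and their values are uncertain. Prom1 rested on 4.5 pleural cavity reads.

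Other granule cargo was low as well. Of the other 7 genes on the list of granule cargo, 5 were listed. All 5 were over 2-fold lower in pleural cavity eosinophils and 4 were over 16-fold lower, beside 43.2% and 21.5% of all listed genes. The median log2 ratio of these 5 was -6.82, beside -0.58 over all listed genes. Ear6 had 74206 mean reads in bone marrow and 655 in pleural cavity eosinophils, a log2 ratio of -6.82. Rnase2b had the smallest difference, with 82.5 and 10 mean reads, the former fractional. Mpo was the only listed gene of 4 relatives of Epx, with 196096.5 mean reads in bone marrow and 374 in pleural cavity eosinophils.

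Genes that serve the making of these proteins had median ratios near that of all listed genes, but below that of abundant listed genes. Peroxidases need haem, and of 11 genes of haem synthesis 5 were listed. All 5 had fewer reads in pleural cavity eosinophils under every scaling tried, beside 57.5% to 64.2% of all listed genes. Over 2-fold lower were 2 of the 5 as deposited and 4 or 5 under the scalings. Alas1, the rate-limiting enzyme of haem synthesis outside the red cell lineage, had 13091 mean reads in bone marrow and 1322.5 in pleural cavity eosinophils (log2 ratio -3.31). Ppox, near the end of the pathway, had a log2 ratio of -0.19. The median of the 5 was -0.89. Of 24 genes for the entry and folding of secretory proteins in the endoplasmic reticulum, 15 were listed, of which 12 had fewer reads, beside 57.5% of all listed genes. As deposited 3 of the 15 were over 2-fold lower, and under the 4 scalings between 7 and 12 were, beside 43.2% of all listed genes as deposited and 47.8% to 57.3% scaled. Calr, a chaperone that binds newly made peroxidases, had 13438 mean reads in bone marrow and 3442 in pleural cavity eosinophils (log2 ratio -1.96). Hyou1, another chaperone there, had the lowest log2 ratio of the list at -2.18. Sec11c, Srp14 and Xbp1 were the 3 with more reads in the pleural cavity, and under the scaling by the median ratio all 15 were lower, beside 64.2% of all listed genes. Xbp1, a transcription factor that secretory cells need and that eosinophil development depends on, had 4365.5 mean reads in bone marrow and 7358.5 in pleural cavity eosinophils. The medians of these lists, -0.89 and -0.60, lay close to the -0.58 of all listed genes. They lay below the median of the 1524 listed genes with at least 1000 mean reads in each tissue, which was 0.88. Not every gene of these lists reached that many reads.

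Among the listed genes for using and releasing granule contents, most had more reads in pleural cavity eosinophils as deposited, by amounts that depended on the scaling. Of 7 genes of the NADPH oxidase, which supplies the peroxide that eosinophil peroxidase consumes, 3 were listed and all 3 were higher as deposited, with log2 ratios from 0.78 to 1.10. Under the scaling by the median ratio 2 of the 3 were lower. Of all listed genes 42.5% were higher as deposited and 64.2% lower under that scaling. Cyba, a membrane subunit, had 24236 mean reads in bone marrow and 51787 in pleural cavity eosinophils. Of 17 genes of vesicle fusion and exocytosis, 11 were listed and 10 had more reads in the pleural cavity, or 8 under the scaling by the median ratio, beside 42.5% and 35.8% of all listed genes. Over 2-fold higher were 6 of the 11 as deposited and 0 to 3 under the scalings, beside 30.5% of all listed genes as deposited and 9.04% to 19.3% under the scalings. Stx7 had the highest log2 ratio of these at 1.63, and Vamp8, a vesicle SNARE, had 8926 mean reads in the pleural cavity and 4760.5 in bone marrow (0.91). Rab37 was the one with fewer reads, at -0.25. Of 13 genes for processing and storage in granules, 6 were listed, with 4 higher and 2 lower, or 3 and 3 under the scaling by the median ratio. The share of all listed genes that were higher was 42.5% and 35.8% in turn. Ctsd, a lysosomal protease, had a log2 ratio of 1.48. Cd63, a membrane protein of the granule, had 24740.5 mean reads in bone marrow and 9023.5 in pleural cavity eosinophils (-1.46).

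**Figure D4:**
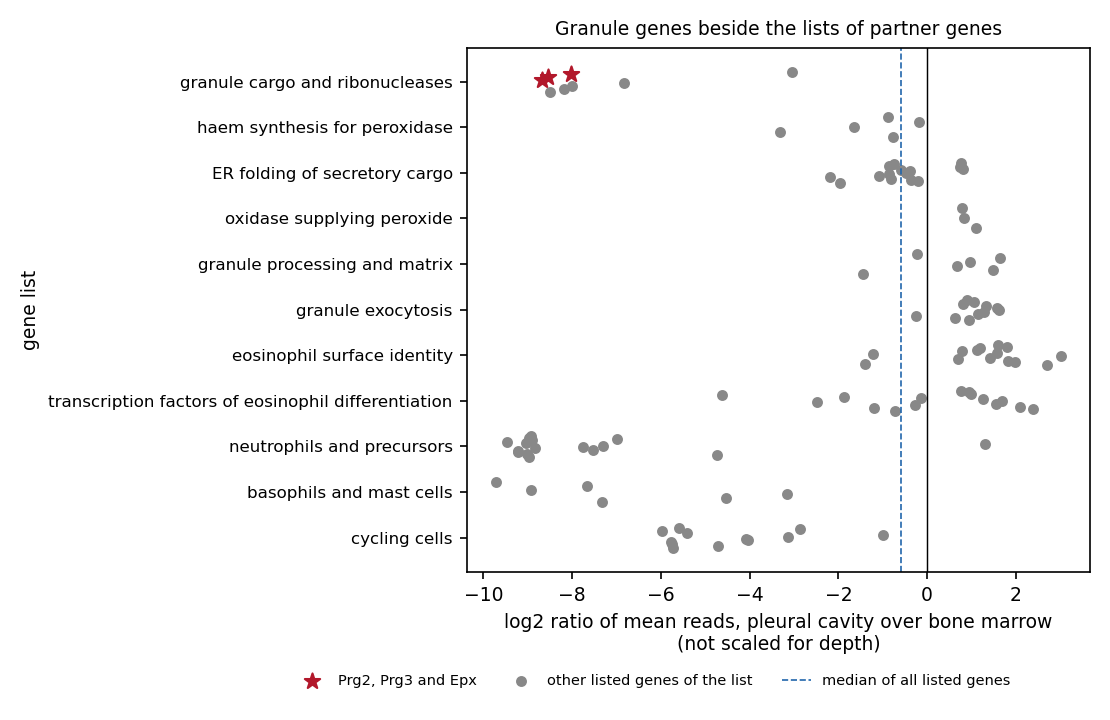
Log2 ratio of mean reads, pleural cavity over bone marrow, for each listed gene (grey) of 11 fixed lists, with Prg2, Prg3 and Epx as red stars and the median of all listed genes, -0.58, as a dashed line. The 3 granule genes lie between -8.67 and -8.03, with several ribonucleases, neutrophil and basophil genes, while genes of haem synthesis, folding, oxidase, exocytosis and the cell surface lie between -3.31 and 3.03.

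Surface and identity genes of eosinophils were read in both sorts. Of 16 such genes 14 were listed, and 12 of the 14 had more reads in pleural cavity eosinophils (10 under the scaling by the median ratio), beside 42.5% of all listed genes (35.8% under that scaling). The sorts themselves used 4 of them, Siglecf and Ptprc (CD45) in both tissues, Adgre1 in both and Itgam (CD11b) in the pleural cavity, so their reads are no independent check of the label. In bone marrow the markers of neutrophils and their precursors took 11.5% of listed reads and the granule cargo list, the 3 genes included, 8.68%. Siglecf had 7105.5 mean reads in bone marrow and 21371 in pleural cavity eosinophils. Ccr3, the eotaxin receptor, had 17177.5 and 67556.5. Alox15, a lipoxygenase abundant in eosinophils, was one of the 2 exceptions, with 79397.8 and 29945.4 mean reads, both fractional. Il3ra was the other, with 323.5 and 139. Where reads of Prg2, Prg3 and Epx were lower, those of Siglecf and Ccr3 were higher, while those of Alox15 and Il3ra were lower too. Siglecf was part of both gates, and what these values say on the identity of the sorted cells was not tested.

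Factors of eosinophil differentiation were split in direction. Of 20 transcription factors 15 were listed, 8 with more and 7 with fewer reads in pleural cavity eosinophils, beside 42.5% and 57.5% of all listed genes. The scaling by the median ratio gave 7 and 8, beside 35.8% and 64.2% of all listed genes. Gata1, which is required for the eosinophil lineage, had 2477 mean reads in bone marrow and 7241 in pleural cavity eosinophils (log2 ratio 1.55). Gata2, active in progenitors, had 633 and 113 (-2.49). Myb, a factor of immature blood cells, had 2095.5 and 84.5 and the lowest log2 ratio of the list, -4.63. Bhlhe40 had the highest at 2.38. Spi1, which encodes PU.1, had 13472 and 26912.5 mean reads. Cebpa, Cebpb and Cebpe were not listed.

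Markers of other cells also differed between the tissues, some lower in the pleural cavity like the 3 genes and some higher. As deposited, 57.5% of all listed genes had fewer reads in pleural cavity eosinophils and 21.5% were over 16-fold lower. Of 17 genes of neutrophils and their precursors 16 were listed, and 15 of them were over 16-fold lower in pleural cavity eosinophils, with none at 0. The list summed to 1348928.5 mean reads in bone marrow and 40253 in pleural cavity eosinophils, of which Mmp9, the exception, gave 34715. Of 12 cycling genes all 12 were listed with fewer pleural cavity reads, 9 of them over 16-fold lower, and they summed to 37172.8 and 3110 mean reads. Top2a, a topoisomerase of dividing cells, had the lowest log2 ratio of these at -5.98. Of 10 genes of basophils and mast cells 6 were listed, all 6 lower, summing to 20482.5 and 1144.5. Of 15 macrophage and monocyte genes 9 were listed, of which 6 were over 2-fold higher in pleural cavity eosinophils (4 under the scaling by the median ratio) and 3 had fewer reads. Over 2-fold higher were 30.5% of all listed genes as deposited and 9.04% under that scaling. Csf1r, the receptor of a macrophage growth factor, had 3973.5 mean reads in bone marrow and 20627.5 in pleural cavity eosinophils. The list summed to 39319 and 48956 mean reads, and without Ly6c2, a monocyte antigen with 22102 and 608.5, to 17217 and 48347.5. Gr1, which only the pleural cavity gate required to be absent or low, covers the products of Ly6g and Ly6c genes. The reads of Ly6c2, and of Ly6g on the neutrophil list (1088 and 5), are therefore no independent measure of other cells. Of the remaining lists, lymphoid genes (5 of 12 listed) summed to 11171 and 564, of which Nkg7 gave 10432 and 112. Ms4a1 on that list was higher in the pleural cavity, with 107 and 366. Erythroid genes (4 of 10) summed to 486.5 and 3, with 2 of the 4 at 0 in the pleural cavity. LLC tumor and mesothelial genes (1 of 8, Krt18) summed to 518 and 1918. In sorted bulk RNA, fewer cells that make a transcript and less transcript per cell cannot be told apart. The study's methods state a very high purity for these sorts and describe Wright-Giemsa staining of the purified cells. The part of immature, dividing or other cells in either sort in the values of Prg2, Prg3 and Epx was not tested.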

How the data were processed

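Libraries of sorted eosinophils (paired reads of 100 bases, 2 per tissue) were grouped by tissue from their titles. According to the study's methods, the authors trimmed reads with SOAPnuke, aligned them with HISAT2 2.1.0 to GRCm38 and mapped them to genes with Bowtie2 2.2.5, and the submitters' processing notes also name StringTie 1.0.4. The authors estimated expected counts with RSEM 1.2.8 and deposited their average per tissue, unscaled as far as the values show, for the genes their DESeq2 comparison selected. The deposited log2 fold changes, p-values and q-values of that comparison were not used. No depth per library is known.

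Ratios of the deposited means were computed with Python 3.11.15, pandas 2.3.3 and scipy 1.17.1. Intervals are 95% exact (Clopper-Pearson) intervals of one mean in the sum of both, cover counting error only and were tested on simulated data. The mean columns used here allow no test between the tissues. Reads per kilobase used the longest transcript in GENCODE, on GRCm38 (an older release than theirs), for 5656 listed genes matched by Ensembl identifier. Proteins were translated from GENCODE transcripts and aligned with Biopython 1.88 (BLOSUM62, gap penalties -11 and -1). Named genes were the 3 granule genes, the extremes, abundant members or functional partners of fixed lists, and the 3 genes nearest in log2 ratio to each. Members and lists were chosen with earlier results of these data known. Alternatives covered 3 scalings, 1 added read, filters and gene lengths. A further scaling was added after seeing the data. Some single genes of the lists are not reported here.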

Additional observations from a re-analysis of the deposited data

How the results depend on the processing

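The direction of all 3 genes was the same under every alternative, and 1 read added to each mean moved none beyond its counting interval. Scaled to the total of all listed genes, the log2 ratio was -8.99 for Prg2, -8.46 for Prg3 and -9.11 for Epx. Scaled to the total without the 50 most abundant listed genes, the values were -9.18, -8.66 and -9.30. Scaled by the median ratio of the 1524 genes whose mean reached 1000 reads in each tissue, they were -9.43, -8.91 and -9.55. No such gene had a log2 ratio between -0.03 and 0.62, and centring on this empty band, chosen after seeing the data, gave -8.85, -8.32 and -8.97. The median of all listed genes shifted from -0.58 to between -1.47 and -0.88. The number of genes over 2-fold higher, 1770 as deposited, was 930, 715, 525 and 1122 under these scalings in turn, and the number over 16-fold higher, 97 as deposited, was 56 under the median ratio. The counts of all listed genes over 2-fold and 16-fold lower stayed within 1.5 times. Counts within small lists moved more, such as genes of protein folding over 2-fold lower, 3 of 15 as deposited and 8, 10, 12 and 7 under these scalings in turn, and oxidase genes with more reads, 3 as deposited and 1 under the median ratio. By coding length, the rank of Prg2 per kilobase was 3 in bone marrow and 1179 in pleural cavity eosinophils. Motif matches were as many in the whole promoter window of 300 bases. No replicate could be left out, and no paired analysis was possible because the mean columns carry no replicate numbers.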

Other observations

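The surroundings of the 3 genes were looked at after their values had been seen. Within 100 kb of Prg2, 4 of 8 annotated genes were listed, all with fewer reads in pleural cavity eosinophils, beside 57.5% of all listed genes. Besides Prg3 these were Slc43a3, with 1811 mean reads in bone marrow and 119 in pleural cavity eosinophils (log2 ratio -3.93), P2rx3 with 612.5 and 15.5 (-5.30), and Ssrp1 with 3298 and 1480.5 (-1.16). Slc43a3 encodes a transporter of purine nucleobases and P2rx3 a channel opened by ATP. Within 100 kb of Epx, 2 of 10 annotated genes were listed. Mpo, 59587 bases away, had a log2 ratio of -9.03, and Tspoap1 had -3.74. With so few listed neighbors, and with unlisted genes having no value, whether genes near these loci differ from other listed genes was not tested.

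Pleural cavity reads were a larger fraction of bone marrow reads for the cycling list than for the 3 granule genes. Over the 12 genes the median log2 ratio was -5.06, with Pcna, a clamp of DNA replication, at -0.99 and Mki67 at -3.13. The 3 granule genes, at -8.67 to -8.03, lay below the lowest of the 12, Top2a at -5.98. Among genes of neutrophils and their precursors, Elane at -9.21 and Ms4a3 at -9.47 lay below the 3 granule genes, and Prtn3 at -7.00 lay above. These comparisons were chosen after the values were seen and were not tested.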
